A study of Mus musculus with 12 samples.

Results

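The genes described here are the 35 genes of glycolysis and lactate transport, from the glucose transporters of the cell membrane to the entry of pyruvate into mitochondria, with 2 genes of oxygen sensing. They were chosen by symbol, as members of the pathway, by a rule that uses no measured value, although earlier results of these data were known when it was written. All 35 were found among the 55228 gene symbols measured in cultured mouse regulatory T cells (Tregs), and 34 passed the filter on low values, a mean of at least 1 TPM, the share of a gene among all transcripts corrected for transcript length, over the 12 libraries. Hk3, a hexokinase of myeloid cells, had a mean of 0.398 TPM and was not tested.

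Tregs were sorted as Foxp3-GFP+ CD25+ cells from the lymph nodes of 16 NOD.Foxp3-GFP mice, a reporter line on the NOD diabetes-prone background. The cells of all mice formed 1 pool, which was divided into 3 parts that were sorted on separate machines and activated separately, and the replicate numbers 1 to 3 mark these parts. On day 2 each part was transduced with a retroviral vector carrying the Thy1.1 surface reporter, either empty (EV) or with a tethered construct, in which an orthogonal IL-2 is linked through a CD25-derived tether to the matching mutated IL-2 receptor β chain. 1G12t and 3A10t carry the orthogonal IL-2 variants 1G12 and 3A10. In EV no IL-2, 1G12t and 3A10t the IL-2 was washed out on day 4, and cells with surface Thy1.1 were collected by sorting 5 days later, on day 9. The group EV+IL-2 held the same EV cells left in medium with soluble IL-2. Each group had 3 libraries, all from that pool, so that a p-value here measures only the spread between these cultures and not between mice. The study asked how tethered IL-2 signals compare with soluble IL-2 and with none, and glycolysis is a pathway that IL-2 is known to feed in T cells.

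Glycolysis splits glucose into pyruvate in the cytosol. Hexokinase and phosphofructokinase commit the sugar, aldolase and triose phosphate isomerase yield triose phosphates, and the steps from Gapdh to Pkm return ATP and NADH. Pyruvate is then reduced to lactate by lactate dehydrogenase and exported by monocarboxylate transporters, or enters mitochondria and is oxidized by pyruvate dehydrogenase, which pyruvate dehydrogenase kinases switch off. Activated T cells are known for high glycolysis with lactate release, while Tregs are known to lean more on mitochondrial oxidation. Several of these genes are classical targets of hypoxia-inducible factor (HIF) and Myc.

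The deposited TPM already allow for length and library size, and were rescaled here by factors of 0.854 to 1.09 so that the typical gene is level between libraries. TPM keep no read depth, so the depth is unknown and the spread between libraries is the only error given. Fold changes are differences in log2(TPM + 1), a scale that understates the change of low genes, and were tested with limma over 15043 genes, with Benjamini-Hochberg adjusted p-values. The fit takes 1 spread per gene from all 4 groups, so that a gene has the same SE in every comparison of all libraries. Foxp3 (369 to 509.8 TPM) and Cd3e (344 to 405 TPM) were high in all 12 libraries. The Foxp3 level was 463, 369 and 391 TPM in 3A10t, below the other 9 libraries, and the summed level of 6 Treg genes was 1840.4 to 1942 TPM in EV no IL-2, 2222 to 2242 TPM in EV+IL-2, 1914 to 1985 TPM in 1G12t and 1596 to 1929.8 TPM in 3A10t. Cd4 was at 314, 177 and 230.1 TPM in 3A10t and at 233 to 323 TPM elsewhere. Ms4a1, Lyz2, S100a8, S100a9, Csf1r and Cd8a, markers of B cells, myeloid cells and CD8 T cells, reached at most 1.73 TPM. Cd79a, another B cell marker, reached 2.22 TPM, and Cd8b1, another CD8 T cell marker, was at 3.11 to 5.74 TPM. Cd8a and Cd8b1 summed to 3.62 to 5.26 TPM in EV no IL-2, 4.64 to 5.76 TPM in EV+IL-2, 3.45 to 4.56 TPM in 1G12t and 4.26 to 6.51 TPM in 3A10t. The summed level of 3 B cell markers was 8.34 to 9.95 TPM in EV no IL-2, 10.2 to 12.7 TPM in EV+IL-2, 8.69 to 12.9 in 1G12t and 11.3 to 16.0 in 3A10t, with Cd79b the main contributor. The summed level of 5 myeloid markers, nearly all of it Cst3, was 506 to 546 TPM in EV no IL-2, 506 to 555 TPM in EV+IL-2, 441 to 539 in 1G12t and 539 to 764 in 3A10t, and the part of any of these lists in the results below was not tested. In bulk RNA, fewer cells that express a gene and less of its RNA in each cell cannot be told apart.

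Per length, the chain was carried by few genes. Ldha, the muscle-type lactate dehydrogenase subunit, had the highest mean over the 12 libraries (1081 TPM), followed by Eno1 (1042 TPM) and Pkm (1021 TPM), and the library ranges of these 3 genes overlapped. This order holds for the reads assigned to each gene, since the near-identical Eno1b and Gm4735 were listed at 551 and 549 TPM. Aldoa followed at 781 TPM, with libraries that still overlapped those of Pkm. Gapdh (336 TPM) lay below Aldoa in every library. The mitochondrial pyruvate carrier gene Mpc1 (257 TPM) and Gpi1 (226 TPM) came next. Tpi1, Pgk1, Hif1a and Mpc2 lay between 126 and 132 TPM with overlapping libraries. The lowest tested genes were Pfkfb4 (5.98 TPM), Hk2 (3.81 TPM) and Pfkfb2 (3.03 TPM). Summed over the 19 enzyme genes from hexokinase to lactate dehydrogenase, the level was 4788 to 5146 TPM in EV no IL-2, 5417 to 5979.9 TPM in EV+IL-2, 4415 to 5025 TPM in 1G12t, and 5276, 7003 and 6006 TPM in the 3 libraries of 3A10t. The sums of EV+IL-2 and of 3A10t were all above those of EV no IL-2, and those of 1G12t overlapped them.

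**Figure D1:**
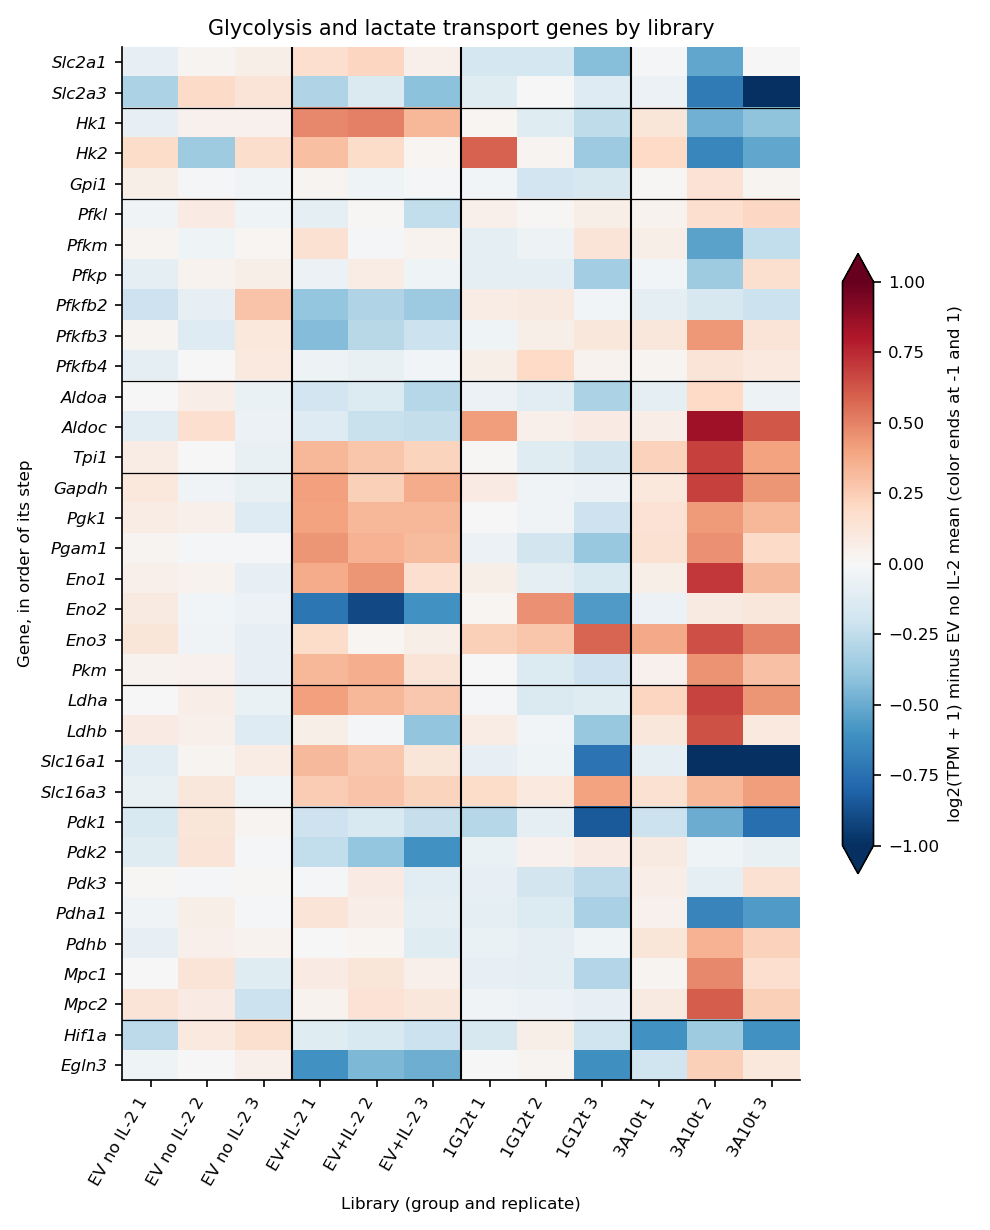
Difference of log2(TPM + 1) from the EV no IL-2 mean for the 34 tested genes (vertical axis, in order of their step) in the 12 libraries (horizontal axis), with red above and blue below that mean. In 3A10t, replicates 2 and 3 are more strongly colored than replicate 1, red from Tpi1 to Ldha and blue for Slc2a3, Hk1, Slc16a1 and Pdha1.

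With all libraries, neither sugar uptake gene passed the test in any comparison. Slc2a1, the basal glucose transporter GLUT1, ranged from 57.1 to 95.7 TPM. Slc2a3, the high-affinity transporter GLUT3, was at 54.8, 78.5 and 75.0 TPM in EV no IL-2 and at 65.8, 41.7 and 32.6 TPM in 3A10t, a log2 difference of -0.61 (SE 0.22, adjusted p 0.126, limma). Replicates 2 and 3 of 3A10t were below every other library and replicate 1 was not. Without 3A10t replicate 1 the difference passed the test.

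Hk1 and Hk2 encode the hexokinases that trap glucose as its phosphate. Hk1 (ENSMUSG00000037012.18, chr10:62268855-62379908 on the minus strand of GRCm38) was at 81.7, 88.8 and 88.8 TPM in EV no IL-2, 121, 123 and 109 TPM in EV+IL-2, 87.5, 79.4 and 72.1 TPM in 1G12t, and 94.2, 61.7 and 65.1 TPM in 3A10t. All 3 EV+IL-2 libraries were above the other 9. Hk1 was lower in 3A10t libraries than in EV+IL-2 by a log2 difference of -0.69 (SE 0.14, adjusted p 0.00689, limma), a call that held without any single library of these groups. Against EV no IL-2, EV+IL-2 was higher by 0.44 (SE 0.14, adjusted p 0.0706). Hk2, the inducible hexokinase, stayed between 1.96 and 6.02 TPM, and Gpi1, the next enzyme, between 198 and 249.9 TPM, and neither passed the test in any comparison with all libraries.

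Phosphofructokinase, the main control point, is built from the subunits of Pfkp, Pfkl and Pfkm, and Pfkfb enzymes make its activator fructose 2,6-bisphosphate. Pfkp (141 to 202 TPM), Pfkl (82.1 to 113 TPM) and Pfkm (8.2 to 13.9 TPM) passed no test in the reported fit of all libraries. Pfkl passed in 3A10t against EV+IL-2 in 8 alternatives, among them quantile normalization and the transcript length trend removed. Pfkfb3, the activator enzyme with the highest kinase activity (ENSMUSG00000026773.19, chr2:11471433-11554077, minus strand), was at 14.5, 12.9 and 15.4 TPM in EV no IL-2, 10.3, 11.6 and 12.1 TPM in EV+IL-2, 13.8, 14.8 and 15.4 TPM in 1G12t, and 15.5, 19.6 and 15.7 TPM in 3A10t. EV+IL-2 held the 3 lowest libraries and 3A10t the 3 highest. Pfkfb3 was higher in 3A10t than in EV+IL-2 by 0.54 (SE 0.11, adjusted p 0.00599, limma), and this held without any single library of these groups. The difference of EV+IL-2 from EV no IL-2 was -0.31 (SE 0.11, adjusted p 0.0907) and that of 3A10t was 0.23 (SE 0.11, adjusted p 0.208). Pfkfb2 and Pfkfb4 were low, at most 6.72 TPM, and did not pass the test.

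Aldolase cleaves the 6-carbon sugar phosphate and Tpi1 interconverts the resulting trioses. Aldoa, the main aldolase, was at 672 to 745 TPM in EV+IL-2 and at 779.7 to 855 TPM in EV no IL-2, without overlap (log2 difference -0.20, SE 0.096, adjusted p 0.213). Aldoc, the brain-type aldolase, was at 11.9, 14.5 and 12.2 TPM in EV no IL-2, 11.6, 10.9 and 10.7 TPM in EV+IL-2, 17.4, 13.3 and 13.6 TPM in 1G12t, and 13.4, 23.9 and 20.2 TPM in 3A10t. All 3A10t libraries were above all EV+IL-2 libraries, replicates 2 and 3 far more than replicate 1. Aldoc was higher in 3A10t than in EV+IL-2 by 0.71 (SE 0.18, adjusted p 0.0174, limma), and the call was lost without replicate 2 or 3 of EV+IL-2 or replicate 2 or 3 of 3A10t (adjusted p 0.0544 to 0.0613). Tpi1 (ENSMUSG00000023456.15, chr6:124810586-124814296, minus strand) was at 122, 117 and 111 TPM in EV no IL-2, 147, 141 and 136 TPM in EV+IL-2, 117, 107 and 102 TPM in 1G12t, and 137, 188 and 154 TPM in 3A10t. EV+IL-2 and 3A10t both lay above every library of EV no IL-2 and 1G12t. Tpi1 was higher in 3A10t than in 1G12t by 0.54 (SE 0.11, adjusted p 0.0343, limma), a call lost without any single library of these groups but 3A10t replicate 1 (adjusted p 0.0568 to 0.108). Against EV no IL-2 the difference was 0.44 (SE 0.11, adjusted p 0.0641), which passed without 3A10t replicate 1 (0.54, adjusted p 0.00413).

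The lower part of glycolysis, from Gapdh to Pkm, held both genes that were higher in EV+IL-2 than in EV no IL-2. Its 7 genes had a median log2 difference from EV no IL-2 of 0.33 for EV+IL-2, 0.30 for 3A10t and -0.066 for 1G12t, and over all genes tested it was -0.014, 0.026 and -0.0038. Pgk1, phosphoglycerate kinase, makes the first ATP of the chain, and Pgam1, phosphoglycerate mutase, prepares its product for enolase. Both are shown with the 250 bases before their RefSeq start (GRCm38.p6, plus strand), since they are the 2 genes that were higher in EV+IL-2 than in EV no IL-2. Capitals mark each match to the HIF core motif, ACGTG or GCGTG on either strand (CACGT or CACGC when read on the other). The Pgk1 window (chrX:106186850-106187099) holds 2 matches and the Pgam1 window (chr19:41911621-41911870) holds 3.
Pgk1: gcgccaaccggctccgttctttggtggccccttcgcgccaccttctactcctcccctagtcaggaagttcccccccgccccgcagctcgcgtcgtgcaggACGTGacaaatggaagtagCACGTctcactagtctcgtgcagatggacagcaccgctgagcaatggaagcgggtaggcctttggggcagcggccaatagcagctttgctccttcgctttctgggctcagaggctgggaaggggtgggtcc
Pgam1: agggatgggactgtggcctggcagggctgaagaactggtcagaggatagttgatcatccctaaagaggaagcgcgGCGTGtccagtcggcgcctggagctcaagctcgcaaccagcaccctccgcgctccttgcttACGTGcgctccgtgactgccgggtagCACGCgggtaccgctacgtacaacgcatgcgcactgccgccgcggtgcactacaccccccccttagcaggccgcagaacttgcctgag

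Pgk1 (ENSMUSG00000062070.12, chrX:106187100-106203699, plus strand) was at 122, 119.5 and 106 TPM in EV no IL-2, 153, 145 and 146 TPM in EV+IL-2, 115, 113 and 99.6 TPM in 1G12t, and 127, 155 and 145 TPM in 3A10t. All libraries of EV+IL-2 and of 3A10t were above all of EV no IL-2 and 1G12t. Pgk1 was higher in EV+IL-2 than in EV no IL-2 by 0.36 (SE 0.094, adjusted p 0.0298, limma), and the call was lost without replicate 2 or 3 of EV no IL-2 or any EV+IL-2 library (adjusted p 0.0596 to 0.115). In 3A10t the difference was 0.30 from EV no IL-2 (SE 0.094, adjusted p 0.103) and 0.38 from 1G12t (SE 0.094, adjusted p 0.0501). With the shared sort as a block the latter passed (adjusted p 0.0484), and without 3A10t replicate 1 both did (adjusted p 0.0149 and 0.00609).

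Pgam1 (ENSMUSG00000011752.7, chr19:41911923-41918660, plus strand) was at 147, 143 and 142 TPM in EV no IL-2, 196, 183 and 179 TPM in EV+IL-2, 138, 127 and 110.5 TPM in 1G12t, and 160.0, 198 and 165 TPM in 3A10t. The groups EV+IL-2 and 3A10t were wholly above EV no IL-2, and 1G12t was wholly below it. Pgam1 was higher in EV+IL-2 than in EV no IL-2 by 0.37 (SE 0.10, adjusted p 0.0355, limma), and this was lost when any 1 of those 6 libraries was left out (adjusted p 0.0695 to 0.134). It was higher in 3A10t than in 1G12t by 0.48 (SE 0.10, adjusted p 0.0388), which was lost without any library of the pair but 3A10t replicate 1 (adjusted p 0.0539 to 0.112) and with the transcript length trend removed (adjusted p 0.0522, and 0.0524 with the block).

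Gapdh, the dehydrogenase that oxidizes triose phosphate, was at 312, 284 and 276 TPM in EV no IL-2, 385, 342 and 375 TPM in EV+IL-2, 308, 284 and 278 TPM in 1G12t, and 312, 468 and 395 TPM in 3A10t. Replicate 1 of 3A10t stood level with the highest EV no IL-2 library, and the other two stood above all 3. The difference of 3A10t from EV no IL-2 was 0.41 (SE 0.13, adjusted p 0.0994, limma) and became 0.56 without 3A10t replicate 1 (adjusted p 0.00334). Eno1, the main enolase, and Pkm, pyruvate kinase, also had higher means in EV+IL-2 and 3A10t than in the other groups. Eno1 averaged 919.9 TPM in EV no IL-2, 1158 TPM in EV+IL-2, 879.8 TPM in 1G12t and 1205 TPM in 3A10t, and Pkm averaged 936, 1135, 866 and 1130.3 TPM in this order. Neither passed the test in the reported fit of all libraries. Pkm passed in 3A10t against 1G12t in 4 alternatives, among them a fit of protein-coding genes alone. The splice forms PKM1 and PKM2 are not separated in values per gene.

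The minor enolases had other orders of groups. Eno2, the neuronal enolase (ENSMUSG00000004267.16, chr6:124760053-124769673, minus strand), was at 15.4, 14.2 and 13.8 TPM in EV no IL-2, 8.32, 7.24 and 9.15 TPM in EV+IL-2, 14.6, 20.2 and 9.40 TPM in 1G12t, and 13.8, 15.4 and 15.7 TPM in 3A10t. The 3 EV+IL-2 libraries were the lowest of the 12. Eno2 was lower in EV+IL-2 than in EV no IL-2 by -0.74 on the log2 scale (SE 0.20, adjusted p 0.0349, limma), which was lost with the shared sort as a block (adjusted p 0.0521) and when any 1 of the 6 libraries was left out (adjusted p 0.0622 to 0.126). In 3A10t Eno2 was higher than in EV+IL-2 by 0.79 (SE 0.20, adjusted p 0.0187), a call lost without replicate 1 or 2 of EV+IL-2 or replicate 2 or 3 of 3A10t (adjusted p 0.0577 to 0.0698). Eno3, the muscle enolase (ENSMUSG00000060600.15, chr11:70657202-70662513, plus strand), was at 54.1, 48.3 and 46.8 TPM in EV no IL-2, 56.5, 50.5 and 51.8 TPM in EV+IL-2, 58.8, 60.2 and 74.8 TPM in 1G12t, and 65.0, 78.2 and 70.6 TPM in 3A10t. Both tethered groups were wholly above both EV groups. Eno3 was higher in 3A10t than in EV no IL-2 by 0.51 (SE 0.11, adjusted p 0.0442, limma), which was lost with the block (adjusted p 0.0593), with the transcript length trend removed (adjusted p 0.0869), and without replicate 2 or 3 of 3A10t or any library of EV no IL-2 (adjusted p 0.0699 to 0.172). Against EV+IL-2 it was higher by 0.42 (SE 0.11, adjusted p 0.0205), lost without replicate 2 or 3 of EV+IL-2 or replicate 2 or 3 of 3A10t (adjusted p 0.0509 to 0.069). In 1G12t the difference from EV no IL-2 was 0.37 (SE 0.11, adjusted p 0.684).

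**Figure D2:**
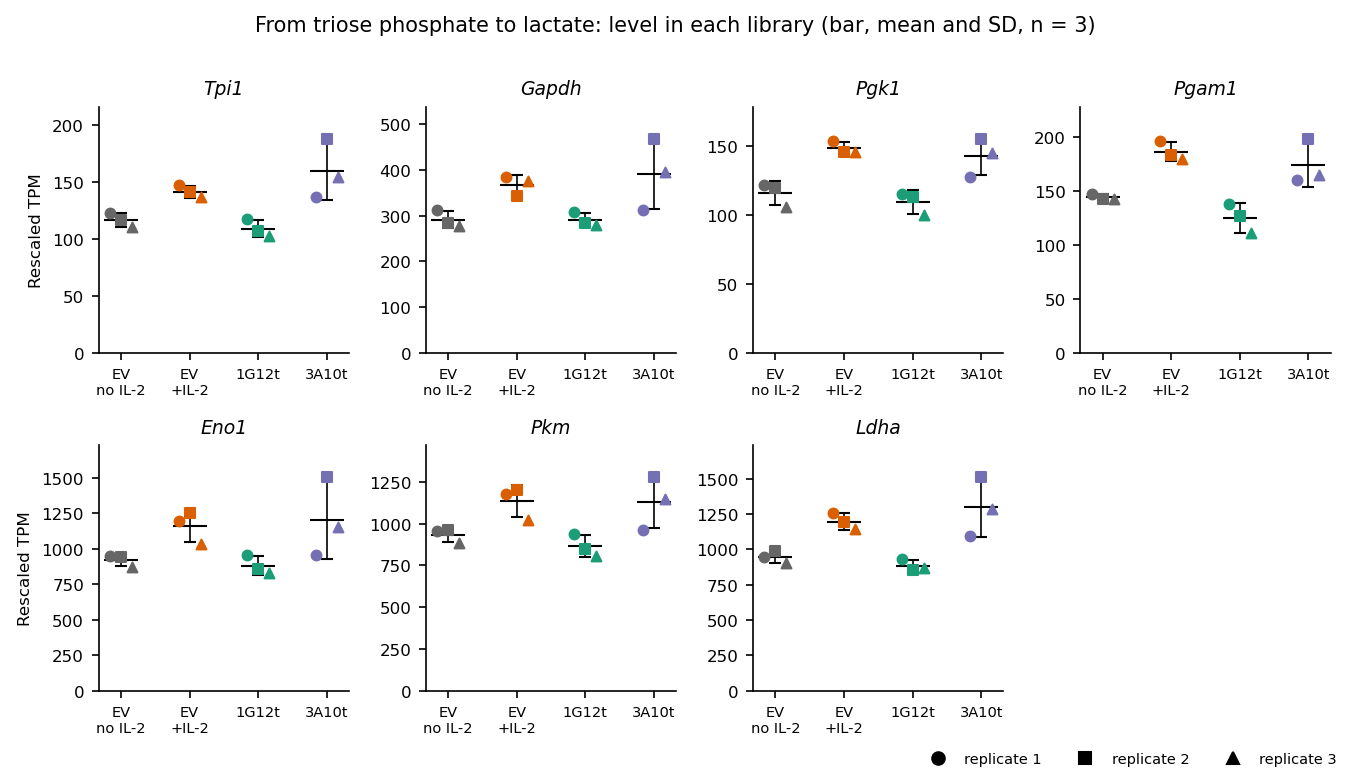
Rescaled TPM (vertical axis, from 0) of Tpi1, Gapdh, Pgk1, Pgam1, Eno1, Pkm and Ldha in the 4 groups (horizontal axis), with 1 symbol per library and black bars for mean and SD of 3 libraries. EV+IL-2 lies above EV no IL-2 in every panel, 1G12t lies at or below it, and 3A10t spreads from replicate 1 near EV no IL-2 to replicate 2 at the top.

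Lactate dehydrogenase is a tetramer of Ldha and Ldhb subunits, with Ldha favoring lactate formation. The Ldha window (chr7:46845554-46845803, plus strand) is shown as the promoter of this chain with the most motif matches. Its capitals hold 2 copies of the Myc-type E-box CACGTG, each of which also counts as a HIF core match on both strands, and 1 further match, 5 in all.
Ldha: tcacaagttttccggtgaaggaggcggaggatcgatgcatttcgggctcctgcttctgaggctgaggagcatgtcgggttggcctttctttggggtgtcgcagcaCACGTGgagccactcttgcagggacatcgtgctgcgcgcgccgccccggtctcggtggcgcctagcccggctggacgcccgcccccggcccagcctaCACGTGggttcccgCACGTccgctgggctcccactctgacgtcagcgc

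Ldha (ENSMUSG00000063229.15, chr7:46841475-46855627, plus strand) was at 945, 987 and 899.9 TPM in EV no IL-2, 1256, 1190.4 and 1140.2 TPM in EV+IL-2, 929, 852 and 869.7 TPM in 1G12t, and 1094, 1511 and 1283 TPM in 3A10t. EV+IL-2 and 3A10t did not overlap EV no IL-2 or 1G12t. Ldha was higher in 3A10t than in 1G12t by 0.54 (SE 0.10, adjusted p 0.0318, limma), a call lost without any library of the pair but 3A10t replicate 1 (adjusted p 0.0563 to 0.103). Against EV no IL-2 the difference was 0.45 in 3A10t (SE 0.10, adjusted p 0.0563) and 0.34 in EV+IL-2 (SE 0.10, adjusted p 0.0536). Without 3A10t replicate 1 the former passed (0.56, adjusted p 0.002). Ldhb stayed between 32.2 and 67.0 TPM and was not called in any comparison in the fit of all libraries with no block, while with the block it was higher in 3A10t than in EV+IL-2 (adjusted p 0.0485).

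Lactate leaves the cell through the monocarboxylate transporters MCT1 (Slc16a1) and MCT4 (Slc16a3). Slc16a1 (ENSMUSG00000032902.1, chr3:104638668-104658462, plus strand) was at 11.0, 12.2 and 12.6 TPM in EV no IL-2, 15.1, 14.6 and 13.0 TPM in EV+IL-2, 11.2, 11.5 and 6.75 TPM in 1G12t, and 11.1, 5.00 and 5.04 TPM in 3A10t. EV+IL-2 was highest, and 3A10t replicates 2 and 3 with 1G12t replicate 3 were lowest. Slc16a1 was lower in 3A10t libraries than in EV+IL-2 by -1.0 on the log2 scale (SE 0.26, adjusted p 0.0191, limma), lost without replicate 1 or 2 of EV+IL-2 or replicate 2 or 3 of 3A10t (adjusted p 0.0587 to 0.0749). Slc16a3, the exporter of glycolytic cells, was at 11.1, 12.7 and 11.3 TPM in EV no IL-2, 14.1, 14.5 and 13.8 TPM in EV+IL-2, 13.4, 12.6 and 15.8 TPM in 1G12t, and 13.1, 15.0 and 15.9 TPM in 3A10t, and passed no test with all libraries. Its difference from EV no IL-2 was 0.25 in EV+IL-2 and 0.30 in 3A10t (SE 0.10 in each).

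The promoter windows of Hk1 (chr10:62379909-62380158, minus strand) and Slc16a1 (chr3:104638414-104638663, plus strand) are shown as those of the 2 genes that were lower in 3A10t libraries than in EV+IL-2. Hk1 has no motif match in this window and Slc16a1 has 4, of which 2 overlap in 1 E-box. Each window is that of the first start listed for the gene, and other starts were not examined.
Hk1: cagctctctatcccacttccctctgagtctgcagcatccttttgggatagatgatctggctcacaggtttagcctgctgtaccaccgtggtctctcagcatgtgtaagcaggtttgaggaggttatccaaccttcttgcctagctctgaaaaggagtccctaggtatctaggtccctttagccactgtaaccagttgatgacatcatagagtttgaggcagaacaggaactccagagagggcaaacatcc
Slc16a1: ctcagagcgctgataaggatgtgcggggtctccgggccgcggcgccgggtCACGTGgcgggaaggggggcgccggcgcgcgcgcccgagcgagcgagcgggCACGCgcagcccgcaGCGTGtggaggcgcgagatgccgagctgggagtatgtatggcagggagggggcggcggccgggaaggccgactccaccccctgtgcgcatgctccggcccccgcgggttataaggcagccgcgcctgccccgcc

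Pyruvate enters mitochondria through the carrier of Mpc1 and Mpc2 and is oxidized by pyruvate dehydrogenase, whose E1 subunits are Pdha1 and Pdhb. Pdhb (ENSMUSG00000021748.9, chr14:8165996-8173025, minus strand) was at 184, 201 and 199 TPM in EV no IL-2, 195, 197 and 179 TPM in EV+IL-2, 186, 183 and 189 TPM in 1G12t, and 211, 247 and 229 TPM in 3A10t. The 3 libraries of 3A10t were above the other 9. Pdhb was higher in 3A10t than in EV+IL-2 by 0.27 (SE 0.077, adjusted p 0.0294, limma), lost without replicate 1 or 3 of EV+IL-2 or replicate 2 or 3 of 3A10t (adjusted p 0.056 to 0.101). Its partner Pdha1 was at 121, 129 and 123 TPM in EV no IL-2 and at 128, 78.5 and 83.4 TPM in 3A10t, so that the subunits differed in direction in replicates 2 and 3. The log2 difference of Pdha1 was -0.40 (SE 0.16, adjusted p 0.154), and it passed without 3A10t replicate 1. Mpc1 averaged 248 TPM in EV no IL-2, 262 TPM in EV+IL-2, 222 TPM in 1G12t and 292 TPM in 3A10t, and Mpc2 averaged 117, 125, 112 and 147 TPM. Neither passed the test, although Mpc1 in 3A10t against 1G12t (0.38, SE 0.12, adjusted p 0.0696) passed with the block (adjusted p 0.0483) and without 3A10t replicate 1 (adjusted p 0.0131).

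Pyruvate dehydrogenase kinases phosphorylate and inactivate the complex. Pdk2 (ENSMUSG00000038967.13, chr11:95026258-95041354, minus strand) was at 24.5, 29.3 and 26.5 TPM in EV no IL-2, 22.4, 20.2 and 17.3 TPM in EV+IL-2, 25.4, 27.5 and 28.3 TPM in 1G12t, and 28.6, 25.9 and 25.3 TPM in 3A10t. EV+IL-2 was below the other 3 groups, which overlapped each other. Pdk2 was lower in EV+IL-2 than in EV no IL-2 by -0.41 on the log2 scale (SE 0.11, adjusted p 0.0266, limma), lost without replicate 2 or 3 of either group (adjusted p 0.0707 to 0.0996). It was higher in 3A10t than in EV+IL-2 by 0.40 (SE 0.11, adjusted p 0.0204), lost without EV+IL-2 replicate 2 or 3 (adjusted p 0.0502 and 0.072). Pdk1, the kinase induced by HIF, averaged 28.0 TPM in EV no IL-2, 24.2 TPM in EV+IL-2, 21.3 TPM in 1G12t and 19.9 TPM in 3A10t and passed no test with all libraries. Pdk3 stayed between 21.7 and 29.2 TPM.

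Hif1a encodes the oxygen-regulated subunit of HIF, and Egln3 one of the prolyl hydroxylases that mark it for degradation and is itself a HIF target. Hif1a was at 118, 152 and 159 TPM in EV no IL-2, 131, 128 and 122 TPM in EV+IL-2, 127, 148 and 124 TPM in 1G12t, and 93.3, 111 and 92.8 TPM in 3A10t. The 3 libraries of 3A10t were the lowest of the 12, and here replicate 1 went with the others. The difference from EV no IL-2 was -0.52 (SE 0.12, adjusted p 0.0564, limma), which passed with the block (adjusted p 0.0463), without EV no IL-2 replicate 1 (adjusted p 0.0379) and without 3A10t replicate 1 (adjusted p 0.0334), and not with the length trend removed (-0.35, adjusted p 0.152). Egln3 (ENSMUSG00000035105.5, chr12:54178981-54203860, minus strand) was at 14.7, 15.1 and 15.7 TPM in EV no IL-2, 9.60, 10.8 and 10.5 TPM in EV+IL-2, 15.1, 15.5 and 9.57 TPM in 1G12t, and 13.1, 18.0 and 16.4 TPM in 3A10t. EV+IL-2 was below EV no IL-2 and 3A10t, and 1G12t replicate 3 was as low as EV+IL-2. Egln3 was higher in 3A10t than in EV+IL-2 by 0.56 (SE 0.16, adjusted p 0.032, limma), lost without any of these 6 libraries but 3A10t replicate 1 (adjusted p 0.0671 to 0.11). The difference of EV+IL-2 from EV no IL-2 was -0.51 (SE 0.16, adjusted p 0.0659).

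**Figure D3:**
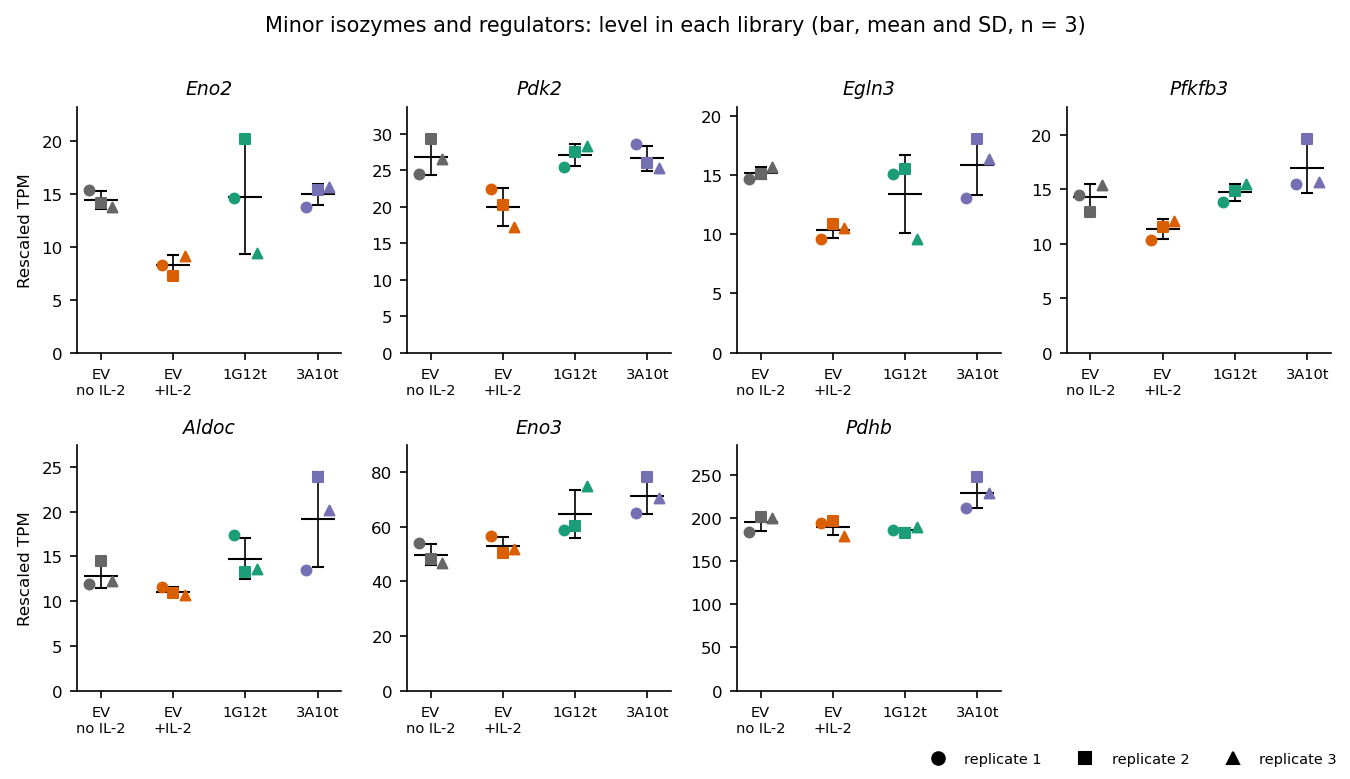
Rescaled TPM (vertical axis, from 0) of Eno2, Pdk2, Egln3, Pfkfb3, Aldoc, Eno3 and Pdhb in the 4 groups (horizontal axis), with 1 symbol per library and black bars for mean and SD of 3 libraries. EV+IL-2 is the lowest group for Eno2, Pdk2, Egln3, Pfkfb3 and Aldoc, and 3A10t has the highest mean in all panels but Pdk2.

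Soluble IL-2 against none gave 2 genes higher, Pgk1 and Pgam1, and 2 lower, Eno2 and Pdk2, of the 34 tested (5.88% in each direction). Of all genes tested 8.17% were higher and 5.13% lower, so that the shares called were near the background. At the threshold of the study's methods, an unadjusted p under 0.01 with a log2 fold change beyond 0.25, Ldha joined the higher and Egln3 the lower genes, 8.82% each, beside 8.99% and 6.1% of all genes. All 3 EV+IL-2 libraries were above all 3 of EV no IL-2 for 10 genes (29.4%, beside 19.6% of all genes), namely Hk1, Tpi1, Gapdh, Pgk1, Pgam1, Eno1, Pkm, Ldha, Slc16a1 and Slc16a3. They were all below for 8 genes (23.5%, beside 20% of all genes), namely Pfkfb2, Pfkfb3, Aldoa, Aldoc, Eno2, Pdk1, Pdk2 and Egln3. The median log2 difference over the 34 genes was 0.012 and over all genes -0.014, with 17 of 34 above 0. The number called ranged from 0 to 10 when 1 library of the 12 was left out, and it was 7 with the length trend removed, an alternative chosen after seeing the data. Of all genes, 1596 were higher and 1136 lower in the fit with 10, and 1482 and 924 in the fit with 7. The number called was 0 without replicate 2 or 3 of either group, where 842 to 948 of all genes were higher and 420 to 529 lower.

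3A10t against EV no IL-2 gave 1 gene higher, Eno3 (2.94%, beside 0.452% of all genes), and 0 lower (beside 1.6% of all genes). The Eno3 call was also lost without a library outside this pair, either any 1 of EV+IL-2 or replicate 1 or 2 of 1G12t. In these fits 14 to 40 of all genes were higher and 48 to 74 lower. At an unadjusted p under 0.05, limma gave 17 of the 34 (50%, beside 26% of all genes). At the threshold of the study's methods 5 genes were higher, Tpi1, Gapdh, Pgk1, Eno3 and Ldha (14.7%, beside 2.83% of all genes), and Hif1a was lower (2.94%, beside 6.67%). The 3A10t libraries were all above EV no IL-2 for 11 genes (32.4%, beside 13.3% of all genes), and all below for Hif1a and Pdk1 (5.88%, beside 12.1%). The median over the 34 genes was 0.073 and over all genes 0.026, with 22 of 34 above 0. With the TPM as deposited and not rescaled, the median of all genes moved by more than 0.1, to -0.091, and that of the 34 genes to -0.065.

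1G12t against EV no IL-2 gave 0 genes higher and 0 lower, where 0.0133% and 0.00665% of all genes were called, and 2 of the 34 had an unadjusted p under 0.05 with limma (5.88%, beside 7.04% of all genes). Eno3 was the 1 gene higher at the threshold of the study's methods (1.13% of all genes were), and 0 were lower (0.226% of all genes). The libraries were wholly above EV no IL-2 for Eno3 (8.68% of all genes) and wholly below for Slc2a1, Pgam1, Pdk3 and Pdha1 (11.8%, beside 7.8%). The median of the 34 genes was -0.089, with 9 above 0, and that of all genes -0.0038.

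3A10t against 1G12t, the direct comparison of the tethers, gave 3 genes higher, Tpi1, Pgam1 and Ldha (8.82%, beside 1.3% of all genes), and 0 lower (beside 2.96%). All 3 calls were also lost when a library outside this pair was left out, either any 1 of EV+IL-2 or replicate 2 or 3 of EV no IL-2. In these fits 19 to 32 of all genes were higher and 67 to 91 lower. The 3A10t libraries were wholly above 1G12t for 13 genes (38.2%, beside 13.7% of all genes) and wholly below for Pfkfb2 and Hif1a (5.88%, beside 12.5%). The median was 0.16 over the 34 genes and -0.017 over all genes, with 23 of 34 above 0, and with the TPM as deposited these medians were -0.030 and -0.18. With the shared sort as a block 5 genes were higher, the 3 with Pgk1 and Mpc1, while the count over all genes went from 196 to 348.

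3A10t against EV+IL-2 gave 7 genes higher, Pfkfb3, Aldoc, Eno2, Eno3, Pdk2, Pdhb and Egln3 (20.6%, beside 10.3% of all genes), and 2 lower, Hk1 and Slc16a1 (5.88%, beside 13% of all genes). Of the 7, all but Eno3 and Pdhb had all EV+IL-2 libraries below all of EV no IL-2. From Tpi1 to Ldha the main isozymes had log2 differences of -0.10 for Pgam1 to 0.16 for Tpi1, and none of these passed the test. The comparisons share libraries and are not independent of each other.

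The libraries of 3A10t were more spread than those of the other groups. Replicate 1 stood apart for some genes, such as Slc16a1 (11.1, 5.00 and 5.04 TPM). Replicate 2 stood apart for others, such as Aldoa (767, 942 and 790 TPM), Pgam1 (160, 198 and 165 TPM) and Ldhb (46.2, 67.0 and 45.9 TPM). The median SD of log2 values between the libraries of a group was 0.23 over the 34 genes in 3A10t, beside 0.088 for EV no IL-2, 0.084 for EV+IL-2 and 0.12 for 1G12t, and over all genes it was 0.22, 0.12, 0.11 and 0.15. Since the spread is shared, the SE of a comparison with 3A10t draws in part on the smaller spread of the other groups. The SE of EV+IL-2 against EV no IL-2 draws in part on the larger spread of 3A10t. Counts with only the 6 libraries compared are given below. Without 3A10t replicate 2, or without replicate 3, 0 of the 34 genes were called against EV no IL-2. Few of all 15043 genes were called there either, 17 higher and 25 lower without replicate 2, and 14 and 17 without replicate 3. Without 3A10t replicate 1, a choice made after seeing the data, 18 genes were called against EV no IL-2. Higher were 11 (32.4%, beside 7.84% of all genes), namely Aldoc, Tpi1, Gapdh, Pgk1, Eno1, Eno3, Pkm, Ldha, Slc16a3, Pdhb and Mpc2. Lower were 7 (20.6%, beside 15.2% of all genes), namely Slc2a3, Hk1, Pfkm, Slc16a1, Pdk1, Pdha1 and Hif1a. Against 1G12t it was 11 higher (beside 11.5% of all genes) and 5 lower (14.7%, beside 15.8%). Replicate 1 lay within or above the EV no IL-2 libraries for Hk1, Slc16a1, Slc2a3, Pdha1 and Pfkm.

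**Figure D4:**
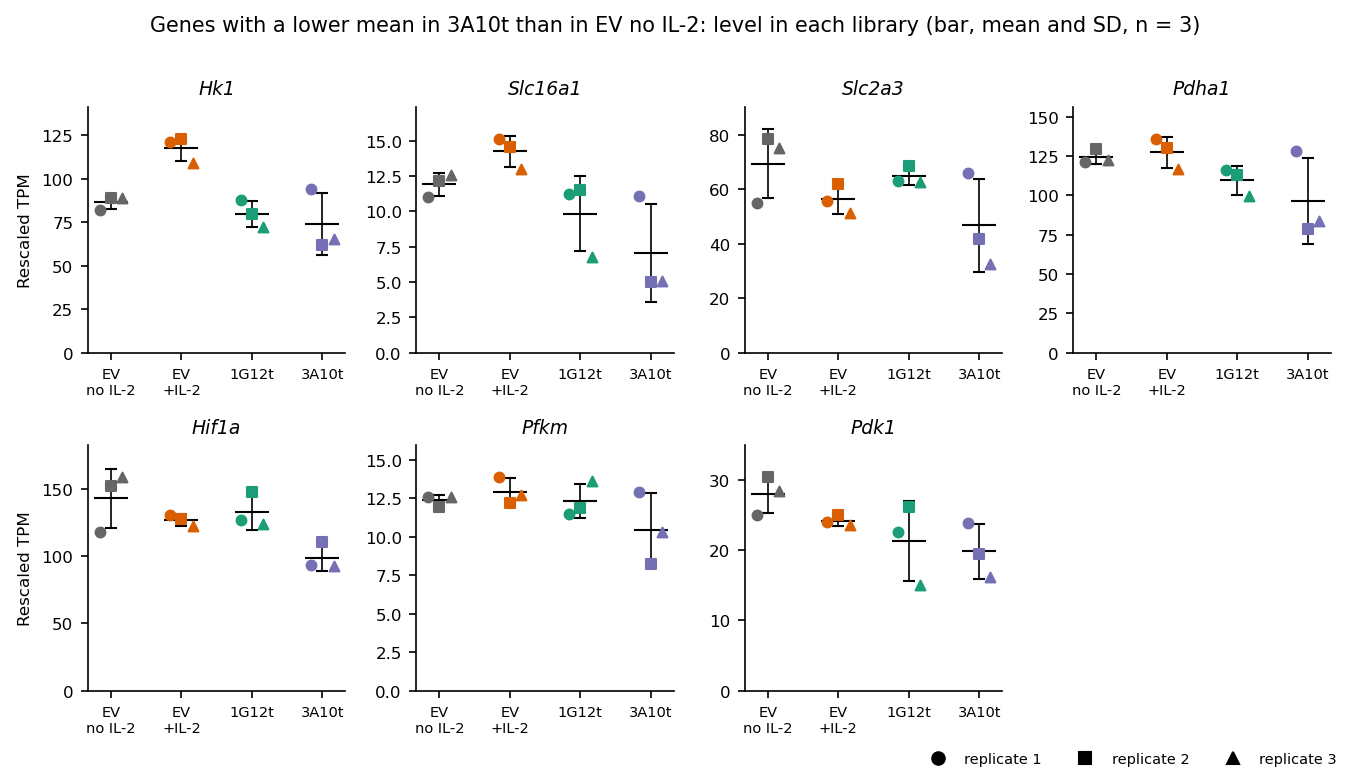
Rescaled TPM (vertical axis, from 0) of Hk1, Slc16a1, Slc2a3, Pdha1, Hif1a, Pfkm and Pdk1 in the 4 groups (horizontal axis), with 1 symbol per library and black bars for mean and SD of 3 libraries. In 3A10t, replicate 1 lies within or above EV no IL-2 and replicates 2 and 3 lie below it, except for Hif1a and Pdk1, where all 3 lie below.

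Transcript length moved with the spread between the 3A10t libraries. The length used is that of the longest GENCODE M21 transcript, and the RNA was reverse transcribed from its poly(A) end and amplified as full-length cDNA for 15 cycles. Over all genes tested with transcripts over 4000 bases, the median log2 difference from EV no IL-2 was -0.032, -0.23 and -0.11 in replicates 1, 2 and 3 of 3A10t, and for those over 1000 and up to 2000 bases it was 0.036, 0.35 and 0.12. In the other groups these medians lay between -0.065 and 0.083. Of the 34 genes, the 11 over 4000 bases had medians of -0.028, -0.36 and -0.40 in the 3 libraries. They were Slc2a3, Hk1, Hk2, Pfkp, Pfkfb2, Pfkfb3, Slc16a1, Slc16a3, Pdk1, Mpc2 and Hif1a. Of these, Pfkfb3, Slc16a3 and Mpc2 were higher in 3A10t than in EV no IL-2, by 0.23, 0.30 and 0.31, and the others had negative differences. Pdha1 (2848 bases) and Pfkm (2879 bases), with lower means in 3A10t than in EV no IL-2, were shorter. The 7 over 1000 and up to 2000 bases, Aldoa, Tpi1, Pgk1, Pgam1, Eno3, Ldha and Ldhb, had medians of 0.15, 0.64 and 0.33. In EV+IL-2 the same 7 had medians of 0.33, 0.27 and 0.23, where all genes of that length had -0.010 to 0.043.

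With the trend on length removed from each library and 3A10t replicate 1 left out, also chosen after seeing the data, 13 genes were higher in 3A10t than in EV no IL-2 (38.2%, beside 7.88% of all genes). They included all 11 named above, with Pfkl and Pfkfb3. Lower were Slc2a3, Slc16a1 and Pdha1 (8.82%, beside 10.4% of all genes), while Hk1, Pfkm, Pdk1 and Hif1a no longer passed. Against 1G12t 14 were higher (41.2%, beside 9.69% of all genes) and Pdha1 was lower (2.94%, beside 10.1%). With all 3 libraries of 3A10t and the trend removed, Eno3 did not pass against EV no IL-2 (adjusted p 0.0869), while Tpi1 and Ldha passed against 1G12t (adjusted p 0.0382 for each) and Pgam1 did not (adjusted p 0.0522). Against EV+IL-2, Hk1, Slc16a1 and Pfkfb3 kept their calls with the trend removed (adjusted p 0.0052, 0.0223 and 0.00394).

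**Figure D5:**
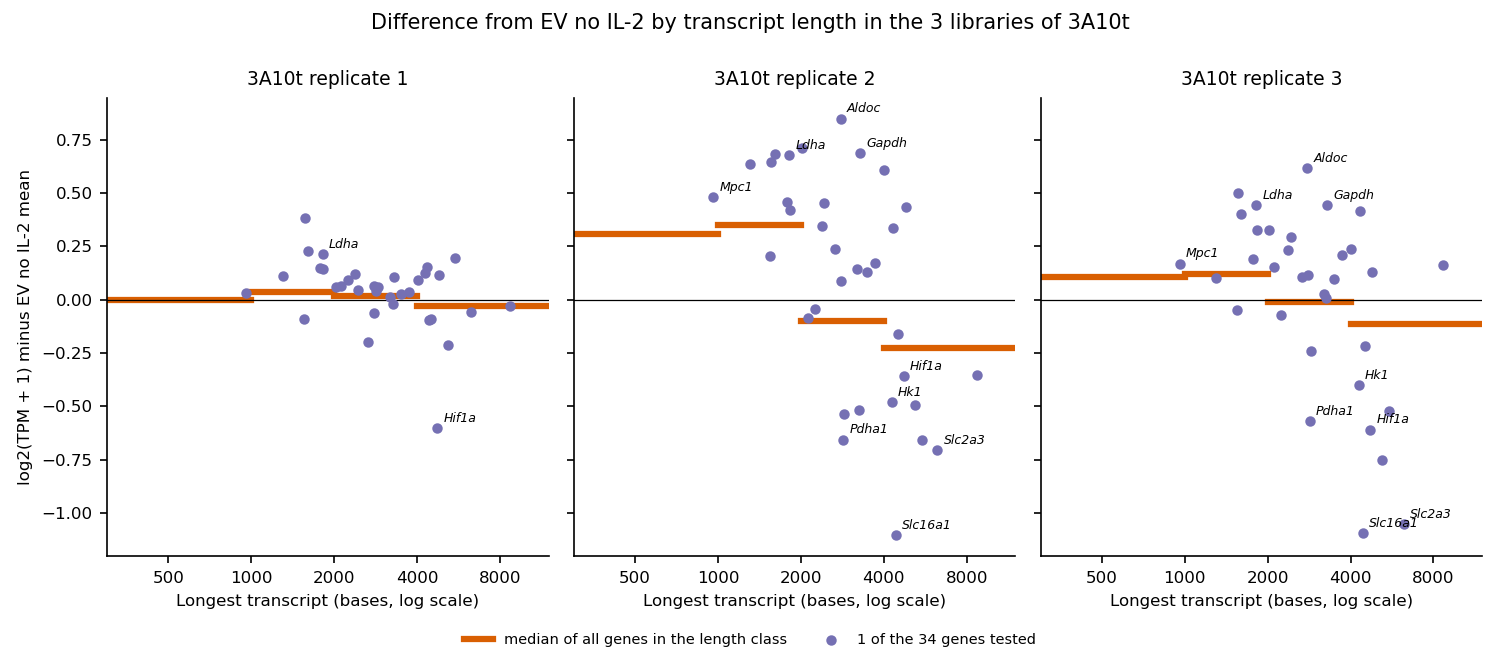
Difference of log2(TPM + 1) from the EV no IL-2 mean (vertical axis) against the length of the longest transcript in bases (horizontal axis, log scale) for the 34 tested genes (points) in each library of 3A10t, with orange lines for the median of all genes in 4 length classes. The lines lie above 0 up to 2000 bases and below 0 for longer transcripts in replicates 2 and 3 and are nearly flat in replicate 1, and Slc16a1 and Slc2a3 lie below the line of their class in replicates 2 and 3.

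Ratios between related genes within a library do not depend on the rescaling and are given as descriptions, with no test. They were not corrected for the trend on transcript length seen in 3A10t replicates 2 and 3, where longer transcripts lay lower. Pdk1 has 5185 bases and Pdk2 2246, Slc2a3 6253 and Slc2a1 3260, and Pfkp 8681 and Pfkl 3730. The part of length in these ratios was not tested. Ldha to Ldhb was 20.9 to 23.1 in EV no IL-2, 28.1 to 35.4 in EV+IL-2, 20.3 to 26.7 in 1G12t and 22.5 to 28.0 in 3A10t. The EV+IL-2 libraries were the highest, with 3A10t replicate 3 next to them. Slc16a3 to Slc16a1 lay between 0.897 and 1.06 in both EV groups, and was 1.19, 1.09 and 2.33 in 1G12t and 1.2, 3.00 and 3.16 in 3A10t. Pdk1 to Pdk2 was 1.02 to 1.07 for EV no IL-2, 1.07 to 1.37 for EV+IL-2, 0.892, 0.952 and 0.534 for 1G12t, and 0.838, 0.754 and 0.638 for 3A10t, below both EV groups in every tethered library. Slc2a3 to Slc2a1 was 0.707 to 0.936 for EV no IL-2, 0.601 to 0.648 for EV+IL-2, 0.869 to 1.03 for 1G12t, and 0.812, 0.73 and 0.395 for 3A10t. Pfkp to Pfkl stayed between 1.28 and 2.14, and Hk2 to Hk1 between 0.0296 and 0.0688.

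Over all members, promoters were matched for 34 of the 35, Slc2a3 having no entry. A HIF core motif was found in 28 of the 34 windows (82.4%) and in 7659 of 17491 windows of protein-coding genes (43.8%). The E-box CACGTG was found in 6 (17.6%) and in 1161 of all windows (6.64%), and these matches are counted under both motifs. The windows of the members had a median GC content of 62%, beside 55.2% for protein-coding genes. A match is a description of letters and not of binding.

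Several members share long stretches with other annotated genes, mostly processed pseudogenes, among which reads cannot be assigned with certainty. Of the 50-base words of the longest transcript, Eno1 shared 72.2%, mainly with Eno1b, Pgk1 68.0%, Pgam1 41.5%, Pkm 34.4%, Gapdh 27.2%, Ldhb 27.0%, Mpc1 23.3% and Ldha 16.7%, while Hk1, Eno3, Slc16a1, Slc16a3, Aldoc, Pdk1, Pdk2, Pdk3 and Egln3 shared none. Levels of the former genes are uncertain to that extent. With the copies summed into the member, the 1 changed call among the genes above was Pgk1 in 3A10t against 1G12t, which passed (adjusted p 0.0425).

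Of the neighboring pathways, the rest of sugar transport, glycolysis and pyruvate metabolism was measured by 21 tested genes of a list of 39. In EV+IL-2, 3 were higher than in EV no IL-2 and 3 lower, beside 8.17% and 5.13% of all genes. Pcx, pyruvate carboxylase, which turns pyruvate into oxaloacetate, was at 12.8, 12.9 and 12.5 TPM in EV no IL-2, 74.8, 84.9 and 75.0 TPM in EV+IL-2, 11.8, 10.3 and 7.80 TPM in 1G12t, and 11.0, 9.91 and 9.25 TPM in 3A10t. EV+IL-2 stood far above the other groups, by 2.53 over EV no IL-2 (SE 0.13, adjusted p 1.48e-06, limma) while 3A10t differed from it by -2.84 (adjusted p 8.72e-07), and both calls held in 20 of 20 alternatives. Adpgk, an ADP-dependent glucokinase, was higher in EV+IL-2 by 0.77 (adjusted p 0.00607), and Galm, which interconverts glucose anomers, was lower by -0.54 (adjusted p 0.0462), a call lost with the block (adjusted p 0.0692) and without any 1 of the 6 libraries (adjusted p up to 0.16). Against EV no IL-2, 0 of the 21 passed in 3A10t or in 1G12t with limma. Of all genes, 0.452% were higher and 1.6% lower in 3A10t, and 0.0133% and 0.00665% in 1G12t. An unadjusted p under 0.05 was found for 8 and 2 of the 21, beside 26% and 7.04% of all genes. 3A10t against EV+IL-2 gave 4 higher and 5 lower, beside 10.3% and 13% of all genes.

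In the tricarboxylic acid cycle (17 genes, all tested), the genes higher in EV+IL-2 than in EV no IL-2 included Sdhd, a subunit of succinate dehydrogenase (0.31, adjusted p 0.0483, limma), and Fh1, fumarase (0.25, adjusted p 0.0454). Sdhd kept its call in 8 and Fh1 in 9 of 20 alternatives, and both lost it without any 1 of the EV no IL-2 libraries (adjusted p up to 0.168 and 0.173). None of the 17 passed in 3A10t or 1G12t against EV no IL-2 with limma, where few of all genes did (shares above). An unadjusted p under 0.05 was found for 1 and 0, beside 26% and 7.04% of all genes. 3A10t against EV+IL-2 gave a log2 difference of -0.67 for Sdhd (adjusted p 0.000715), -0.52 for Cs (adjusted p 0.0327) and, in the other direction, 0.25 for Idh3b (adjusted p 0.047). The calls of Cs and Idh3b were lost without any EV+IL-2 library or 3A10t replicate 2 or 3. In the pentose phosphate pathway (8 genes), Pgls was higher in EV+IL-2 (0.49, adjusted p 0.028, lost without any of the 6 libraries but EV no IL-2 replicate 1, up to 0.112) and Rpe was lower in 3A10t than in EV no IL-2 (-0.51, adjusted p 0.036, lost without any of the 6 libraries but 3A10t replicate 1, up to 0.259 over the alternatives). Of 8 tested genes of the NADH shuttles, 0 passed against EV no IL-2 in any group with limma. In EV+IL-2, 8.17% of all genes were higher and 5.13% lower, and in the other groups few were. An unadjusted p under 0.05 was found for 2, 3 and 0 of the 8 in EV+IL-2, 3A10t and 1G12t. The share of all genes was 26% in 3A10t and 7.04% in 1G12t. Gpd1l (-0.87, adjusted p 0.0142) and Slc25a13 (-0.59, adjusted p 0.0464) were lower in 3A10t libraries than in EV+IL-2. Gpd1l lost the call without EV+IL-2 replicate 1 or 2 or 3A10t replicate 3, and Slc25a13 with the block and without any of these libraries but 3A10t replicate 1 (adjusted p up to 0.111 and 0.119).

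Among 23 tested HIF regulators and other hypoxia-induced genes of a list of 27, 8 were higher and 2 lower in EV+IL-2 than in EV no IL-2, where 8.17% and 5.13% of all genes were. The 3 largest changes were Stc2, a secreted stanniocalcin (2.12, adjusted p 1.44e-06, limma), P4ha2, a collagen prolyl hydroxylase subunit (0.99, adjusted p 0.0012), and Vegfa, the endothelial growth factor (0.79, adjusted p 0.0488, lost with the block at 0.0651 and without any 1 of the 6 libraries, up to 0.165). P4ha2 and Vegfa were low, with means of 1.62 and 2.99 TPM in EV no IL-2 and 4.21 and 5.93 TPM in EV+IL-2. In 3A10t Kdm3a, a histone demethylase, was at 37.7, 27.0 and 29.0 TPM, beside 57.0, 61.1 and 61.9 TPM in EV no IL-2, 51.1, 50.1 and 52.1 TPM in EV+IL-2 and 56.1, 63.2 and 60.2 TPM in 1G12t. All 3 libraries, replicate 1 among them, were below the other 9, with a difference of -0.94 from EV no IL-2 (SE 0.11, adjusted p 0.00516). This call held in 19 of 20 alternatives and was lost with the 6 libraries compared alone (adjusted p 0.259, limma). Arnt, the constant partner of Hif1a, was also lower in 3A10t, by -0.68 on the log2 scale (adjusted p 0.0378), a call lost with the block (adjusted p 0.0504), with the length trend removed, and without replicate 2 or 3 of EV no IL-2 or of 3A10t (adjusted p up to 0.261 over the alternatives). Stc2 was higher in 3A10t by 0.47 (adjusted p 0.0439), lost with the length trend removed and without any of the 6 libraries but 3A10t replicate 1 (adjusted p up to 0.266 over the alternatives). In 1G12t 0 of the 23 passed with limma, beside 0.0133% of all genes higher and 0.00665% lower, and 3 had an unadjusted p under 0.05, beside 7.04% of all genes. 3A10t against EV+IL-2 gave 2 higher and 11 lower, where 10.3% and 13% of all genes were.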

How the data were processed

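RNA of 12 libraries of sorted Thy1.1+ cells was sequenced as paired reads of 50 bases. The authors trimmed adapters with cutadapt 1.18, aligned with STAR 2.5.3 to mm10 (GRCm38) with GENCODE genes, and estimated expression per gene with RSEM 1.3.0, and the deposited table holds TPM for each library. They ran their own tests on estimated counts, which were not used here, and limma 3.58.1 in R 4.3.3 was run on log2(TPM + 1), after rescaling each library by the median of its ratios to the geometric mean library. Genes with a mean of at least 1 TPM entered 1 fit of the 4 groups with a variance trend and no block, and an adjusted p under 0.05 was a call. Figures were drawn with Python 3.11.15 and matplotlib 3.10.9, and the fit was tested on simulated data.

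The members, the pathway lists and the tests were chosen with earlier results of these data known. Genes named with a value in every library are those called in any of the 5 comparisons, and other members with a call under an alternative or a shift between libraries were added after their values were seen. From the pathway lists the 3 largest calls were named, with Kdm3a and Pcx by library chosen after seeing their values. One gene of the tricarboxylic acid cycle list is not reported here.

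The replicate number marks a shared sort and activation, per the labels. Deviations from group means correlated by 0.0409 on average within the 18 same-numbered pairs (-0.105 to 0.155) and by -0.0205 within the 36 others. The fit with this block was run as an alternative.

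TPM hold no depth, and RSEM divides reads between near-identical genes by its own estimate. The alternatives were other filters, pseudocounts, scalings and fits, left-out libraries, summed copies of a gene and the removal of the trend on transcript length (lowess in each library). The last pair was added after seeing the data. Annotation came from GENCODE M21 and promoters from RefSeq, with only the first listed start of each gene.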

Additional observations from a re-analysis of the deposited data

How the results depend on the processing

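Of the 31 fold changes of these genes that passed the test or the threshold of the study's methods, and the 55 called in the pathway lists, none reversed its sign in any alternative. The other fold changes were not recomputed one by one. For EV+IL-2 against EV no IL-2 (4 called), the number of the 34 genes called was 0 with no filter on low TPM, 8 with the TPM as deposited, 8 with the 6 libraries compared alone, 7 with protein-coding genes alone, 7 with the length trend removed, with or without the block, and 11 with the trend removed and 3A10t replicate 1 left out. The calls over all genes moved as well. Higher and lower calls were 1229 and 772 of 15043 in the reported fit and 953 and 699 of 50219 with no filter. They were 1150 and 1049 as deposited, 1725 and 1484 with the 6 libraries, and 1231 and 855 of 11052 protein-coding genes. With the trend removed they were 1482 and 924, and 1663 and 1156 when 3A10t replicate 1 was also left out. For 3A10t against EV no IL-2 (1 called), the number of the 34 was 0 with no filter, with the 6 libraries alone, without a variance trend and with the length trend removed (with or without the block), 3 with a filter at 5 TPM, 2 with the TPM as deposited, 4 with protein-coding genes, 6 at the threshold of the study's methods and 16 with the trend removed and 3A10t replicate 1 left out. The median over the 34 genes was -0.065 with the TPM as deposited and 0.18 with the trend removed and that library left out, beside 0.073. Among all genes, 68 were higher and 240 lower in the reported fit. These counts were 146 and 70 with no filter, 3 and 1 with the 6 libraries, 60 and 126 without a variance trend, and 39 and 79 with the length trend removed. They were 67 and 323 at 5 TPM, 53 and 446 as deposited, 149 and 681 with protein-coding genes, and 426 and 1003 at the study's threshold. The last setting gave 1185 and 1566. For 1G12t against EV no IL-2 (0 called), the threshold of the study's methods gave 1 of the 34, beside 1.13% of all genes higher and 0.226% lower. For 3A10t against 1G12t (3 called), the number of the 34 was 0 with no filter and with the 6 libraries alone, 1 without a variance trend, 7 with a filter at 5 TPM, 9 with protein-coding genes and at the threshold of the study's methods, and 15 with the trend removed and 3A10t replicate 1 left out, and the median was -0.030 with the TPM as deposited. Of all genes, 196 were higher and 446 lower in the reported fit. These counts were 49 and 93 with no filter, 8 and 5 with the 6 libraries, and 49 and 205 without a variance trend. They were 499 and 673 at 5 TPM, 519 and 921 with protein-coding genes, and 1457 and 1517 in the last setting. Calls over all genes at the study's threshold were not counted here. For 3A10t against EV+IL-2 (9 called), the number of the 34 was 2 with the 6 libraries alone, where Hk1 and Pfkfb3 also lost their calls (adjusted p 0.0647 and 0.0528), and 15 with the trend removed and 3A10t replicate 1 left out. Here 1551 of all genes were higher and 1962 lower in the reported fit, 922 and 967 with the 6 libraries, and 2253 and 2732 in the last setting. The cause of these shifts was not tested.

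With 1 library left out at a time the counts ranged from 0 to 10, 0 to 18, 0 to 0, 0 to 16 and 3 to 13 in these 5 comparisons, and the medians from -0.0027 to 0.052, 0.070 to 0.14, -0.13 to -0.050, 0.12 to 0.21 and 0.030 to 0.17. The fits with 10, 18, 16 and 13 called had 1596, 1180, 1723 and 2136 of all genes higher and 1136, 2289, 2382 and 3009 lower. With the shared sort as a replicate block, 5 genes were called in 3A10t against 1G12t, beside 3 without it. Of all genes the block gave 348 higher and 639 lower there, beside 196 and 446. In the other comparisons the block gave 3, 1, 0 and 11 calls, and the calls it changed among the 35 genes were those of Eno2, Eno3, Hif1a, Pgk1 and Mpc1 given above and Ldhb and Hif1a in 3A10t against EV+IL-2, which passed. In these comparisons the block gave 1245, 91, 2 and 1633 of all genes higher and 729, 311, 1 and 2085 lower. With 3 libraries a group, the spread of 3A10t and the unknown depth limit what can be told of low genes such as Hk2 and Pfkfb2.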
